A study of Ictidomys tridecemlineatus with 31 samples.

Results

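Kidney gene expression was compared between 2 states that follow each other when a hibernating 13-lined ground squirrel (Ictidomys tridecemlineatus) leaves torpor. In late arousal (LAr) the animal was still rewarming, and in interbout arousal (IBA) it had reached a warm body temperature between bouts of torpor. The samples were chosen by their hibernation state label, which gave 10 of the 31 animals in the expression table, 5 IBA and 5 LAr. A further LAr animal, K113, was left out of the study's differential expression and is shown apart. Differences are IBA minus LAr, so that a positive value is a higher level after rewarming, over 12863 genes. The comparison asks which transcripts change as rewarming is completed, and each animal was sampled only once.

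Arousal from torpor brings blood flow and warmth back to a kidney that had been cold and barely perfused for days. In mammalian kidneys, the return of blood flow after a period without it is known to induce immediate early genes, transcription factors such as Fos, Jun, and Egr1 whose mRNAs appear quickly, decay quickly, and need no new protein for their induction. Many of their partners in that response, among them the phosphatase Dusp1 and the mRNA decay factor Zfp36, act as brakes on it.

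The IBA animals were the females K1, K104, and K171 and the males K4 and K7. The LAr animals were the females K109, K111, and K112 and the males K115 and K116, and K113 was male. No treatment was given, state was assigned from recorded body temperature, and the kidneys were cleared of blood by perfusion before they were frozen. RNA came from whole pieces of kidney, so that fewer cells of a type and less RNA per cell cannot be told apart. The other states used below for their levels are animals entering torpor (Ent, 5 animals), summer active animals (SA, 4 animals), and spring dark animals (SpD, 5 animals), which were warm after the hibernation season.

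Values were rlog values, normalised read counts on the log2 scale, from which the authors had removed the difference between 2 sequencing experiments. K1, K4, and K7 belonged to experiment 1 (Illumina TruSeq libraries), while K104, K171, and every LAr animal belonged to experiment 2 (Nugen libraries). Within IBA, the animals of experiment 1 still lay closer to LAr than those of experiment 2 for many genes that changed. Over the 60 genes lower in IBA, the median of experiment 1 minus experiment 2 within IBA was 0.17, and over the 124 genes higher in IBA it was -0.10, against 0.0046 over all genes. The fitted differences come from a limma model with terms for state, sex, and experiment over 29 animals, and for such genes they are larger than the difference between the plain group means. LAr had no animal of experiment 1, so the part of the library kit in the IBA/LAr difference was not tested outside experiment 2. The part of the authors' correction in the distance between the IBA animals of the 2 experiments was not tested either. The median residual SD of a gene was 0.155. Counts behind the values were not analysed here, and the depth of each library is unknown. Over the 29 animals, the median value of an animal ran from 9.74 to 9.85. It ran from 9.81 to 9.83 in IBA and from 9.78 to 9.80 in the fitted LAr animals, without overlap. Counts with every animal centered to the same median are given below.

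Differentially expressed (DE) genes were those with q under 0.001, and there were 184, or 1.43% of the genes tested. Of these, 124 were higher in IBA (0.964% of all genes) and 60 were lower (0.466%). Among these DE genes, the fitted decreases were larger than the increases. The higher genes had a lower median level in LAr (8.69 against 9.96), and rlog shrinks low values. LAr is the state in which genes called higher in IBA are low, so part of this gap follows from the choice of genes. The median SE of the higher genes was also smaller (0.086 against 0.127), so that smaller differences could be called. The part of level or SE in the sizes was not tested. The study's own test on counts listed more increases than decreases of at least 2-fold between these states. At least 2-fold differences were found for 25 of the 60 lower genes (41.7%) but for 7 of the 124 higher genes (5.65%). The median log2 difference was -0.87 in the former, with a range of -2.99 to -0.37, and 0.57 in the latter, with a range of 0.32 to 1.38. All 5 IBA animals lay above all 5 LAr animals for 120 of the 124 higher genes and below them for 52 of the 60 lower genes, where 7.62% and 6.06% of all genes did so. The genes were chosen by the same values, so these shares describe them and carry no test.

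**Figure D1:**
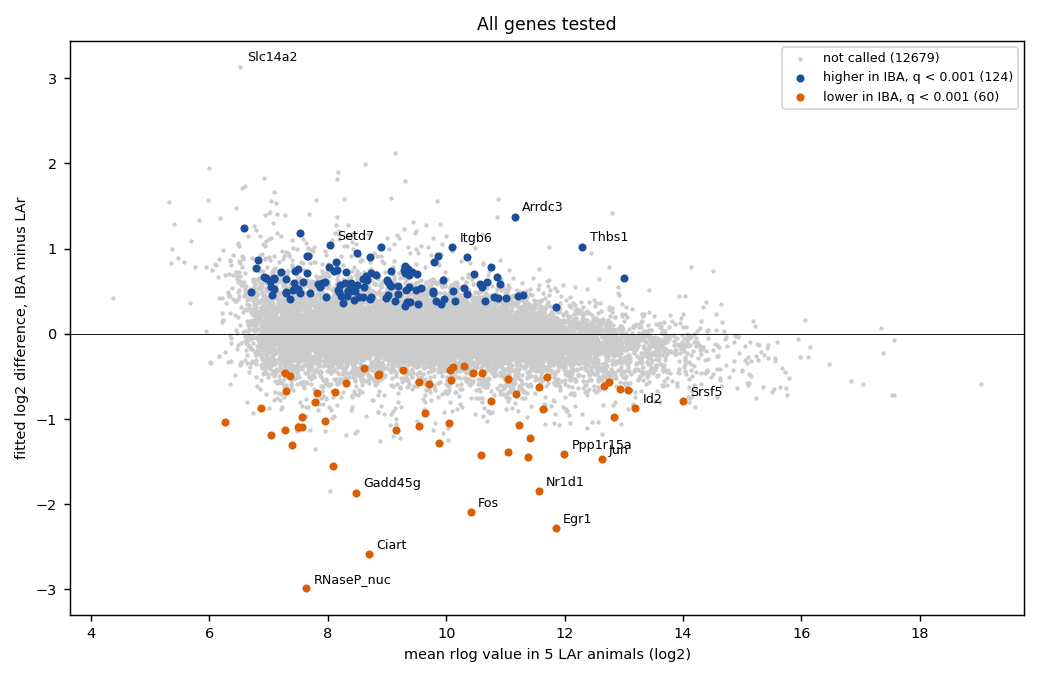
The fitted log2 difference, IBA minus LAr, is plotted against the mean rlog value in the 5 LAr animals for all 12863 genes. The 60 genes lower in IBA at q under 0.001 (orange) extend to -2.99, while the 124 higher genes (blue) end at 1.38 (Arrdc3), and Slc14a2, at 3.13, was not called (q = 0.044).

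The number of DE genes depended on the animals and on the model. Without IBA animal K104 it was 88 (60 higher, 28 lower) and without IBA animal K171 it was 311 (222 higher). In experiment 2 alone, with only K104 and K171 against the 5 LAr animals, limma called 47 genes, 22 higher and 25 lower. With the IBA and LAr animals fitted without the other states it called 0, with 2562 genes at an unadjusted p under 0.05. All 184 DE genes kept their direction in each of these fits. Of 41 named DE genes, 27 missed the threshold in experiment 2 alone, 26 with no term for experiment, and 41 with the IBA and LAr animals fitted alone. The 10 fits without 1 animal that are cited below for single genes do not cover these 3 alternatives. With every animal centered to the same median, the split moved from 124 against 60 to 89 against 74.

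Many immediate early transcription factors were lower in IBA. Of 20 measured members, 8 were DE and all 8 were lower, whereas 0 were higher, beside 0.466% of all genes called lower. The median difference of the list was -0.74, against -0.0074 over all genes. The DE members were Egr1, Fos, Jun, Junb, Atf3, Klf10, and both rows that carry the symbol Ier2, which share a name and may share reads. At q under 0.01, which 6.83% of all genes passed, 11 members were lower and 2 were higher, the latter being Srf (0.32), which encodes the factor that drives many of the other genes, and Ier5l (0.58).

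Fos (gene5017), which forms the AP-1 transcription factor with Jun, was 10.01, 10.17, 10.70, 10.74, and 10.45 in LAr animals K109, K111, K112, K115, and K116. In IBA it was 9.54, 8.88, and 9.30 in K1, K4, and K7 and 8.22 and 8.12 in K104 and K171. All IBA animals were below all LAr animals, and the experiment 2 pair was lowest. The fitted log2 difference was -2.09 (SE 0.20, q = 2.8e-07), a 4.26-fold lower level in IBA.

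Egr1 (gene10450), a zinc finger factor induced by growth factor signals, read 11.64, 11.51, 11.95, 12.24, and 11.94 in the same LAr animals. Its IBA values were 11.32, 10.20, and 10.66 in experiment 1 and 9.22 and 8.85 in experiment 2. K1 came nearest to the lowest LAr animal, and the groups did not overlap. The difference was -2.28 (SE 0.34, q = 9.3e-05), and it missed the threshold without K104 (q = 0.00118).

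Jun (gene9313) lay between 12.30 and 13.01 in LAr, between 11.80 and 12.04 in IBA animals of experiment 1, and at 10.93 and 10.94 in those of experiment 2. Its log2 difference was -1.48 (SE 0.17, q = 7.8e-06). Junb (-1.44) and Atf3 (-1.42), AP-1 partners and stress factors, had differences of like size, but their groups overlapped. K1 read 11.26 for Junb, above LAr animals K109 (11.13) and K111 (11.25), and LAr animal K109 read 9.71 for Atf3, below 3 IBA animals. Klf10, a TGF-beta early gene, had a difference of -1.07 (q = 7.1e-04). The call of Klf10 was lost in 8 of the 10 fits without 1 animal (highest q 0.00378, without IBA animal 104), whereas those of Fos, Jun, Junb, Atf3, and both Ier2 rows were lost in 0 of the 10.

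**Figure D2:**
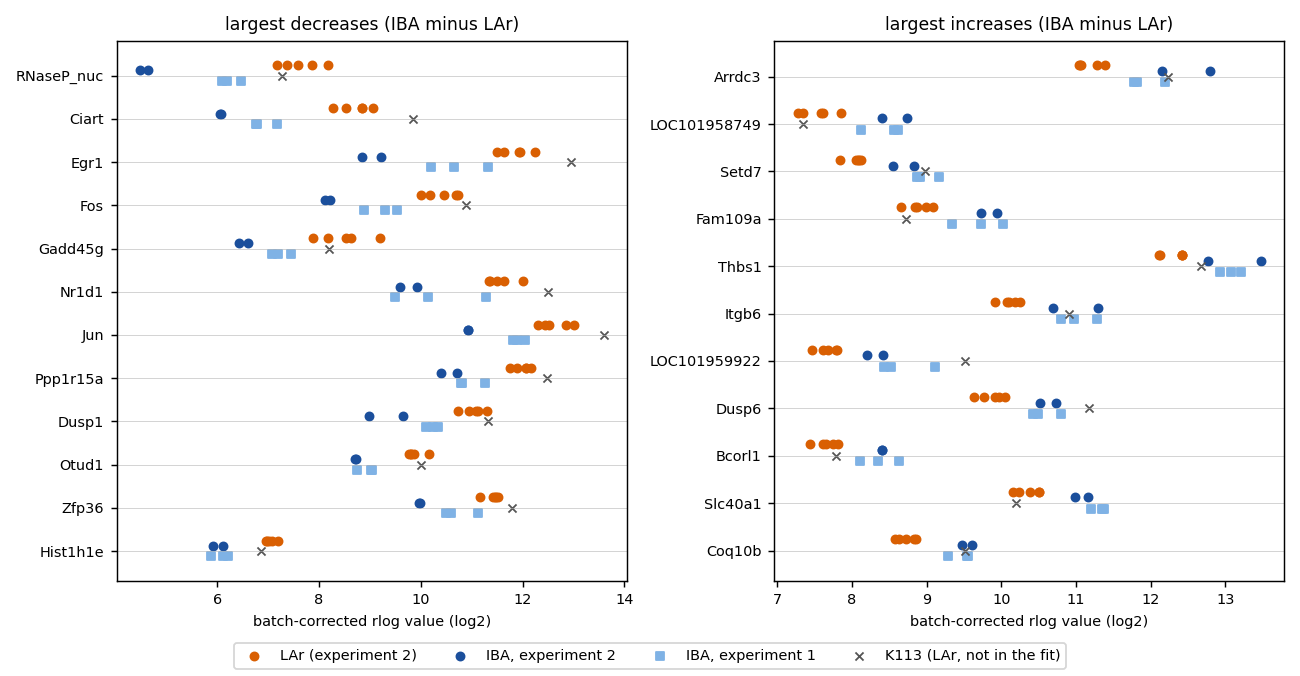
Batch-corrected rlog values of single animals are shown for 12 of the largest decreases and 11 of the largest increases whose groups did not overlap (DE genes with a symbol only). For Fos, LAr animals sit between 10.01 and 10.74 and IBA animals between 8.12 and 9.54, and for Arrdc3 the IBA animals, between 11.78 and 12.79, are all above the LAr animals (11.04 to 11.39).

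Brakes on this response gave both directions. Among 16 feedback inhibitors of MAP kinase signaling, 1 was DE in each direction, beside 0.964% of all genes called higher and 0.466% lower. Dusp1 (gene16656), a phosphatase that switches off stress kinases, was 11.04 ± 0.21 (SD, n = 5) in LAr and 9.86 ± 0.56 in IBA (log2 -1.39, SE 0.25, q = 7.4e-04). Dusp6 (gene7927), which acts on the kinase ERK, was instead higher, at 10.59 ± 0.16 in IBA against 9.87 ± 0.17 in LAr (log2 0.91, SE 0.14, q = 1.1e-04). Neither gene overlapped between the groups. Dusp1 was lost in 8 of the 10 fits without 1 animal (highest q 0.00409, without IBA animal 104), and Dusp6 in 0 of the 10. Dusp6 did miss the threshold in other fits, among them experiment 2 alone and the fit with no term for experiment (highest q in any fit 0.048).

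Among 19 regulators of mRNA decay, Zfp36 and Mex3c were DE in opposite directions, beside 0.964% of all genes called higher and 0.466% lower. Zfp36 (gene18838), which binds AU-rich elements and speeds the decay of cytokine and immediate early mRNAs, was 11.17 to 11.53 in LAr and 9.97 to 11.12 in IBA (log2 -1.22, SE 0.15, q = 1.4e-05). K1 was the highest IBA animal, just below the lowest LAr animal. Mex3c (gene6609), an RNA-binding ubiquitin ligase, was 9.13 to 9.33 in LAr and 9.62 to 9.70 in IBA (log2 0.57, SE 0.08, q = 2.7e-05). The list median was 0.07, close to that of all genes.

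In the integrated stress response, the pathway that lowers protein synthesis through the initiation factor eIF2, 2 of 24 members were DE and both were lower, beside 0.466% of all genes. Ppp1r15a (gene19077), the phosphatase subunit that restores protein synthesis after stress, read 11.75, 11.90, 12.07, 12.17, and 12.07 in LAr. In IBA it read 11.26, 10.79, 10.80, 10.72, and 10.40 for K1, K4, K7, K104, and K171. The groups did not overlap, and the difference was -1.42 (SE 0.15, q = 1.9e-06). Gadd45g (gene22650), an inducible stress gene of the Gadd45 family, was 8.48 ± 0.49 (SD, n = 5) in LAr and 6.95 ± 0.42 in IBA (log2 -1.86, SE 0.25, q = 2.7e-05). Atf4, the central factor of the pathway, had a difference of -0.07 (q = 0.687), and Ddit3 (-0.51, q = 0.0045) passed only q under 0.01.

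Otud1 (gene9120), a deubiquitinase, had a lower q than Fos. It was 9.78, 9.80, 9.86, 10.17, and 9.81 in LAr and lay between 8.72 and 9.03 in IBA (log2 -1.28, SE 0.12, q = 1.7e-07). Adm, the vasodilator adrenomedullin, was 10.04 ± 0.12 in LAr and 9.24 ± 0.31 in IBA (log2 -1.04, q = 6.8e-04). It was the only DE gene of 18 hypoxia response genes, beside 0.466% of all genes called lower. Of the 18 differences, 13 were positive (median 0.14). Id2, an inhibitor of DNA binding downstream of BMP signals, had a difference of -0.87 (q = 6.6e-04). It was the only DE gene of 25 in the TGF-beta, BMP, and Id list, where 15 differences were positive (median 0.06). The calls of Adm and Id2 were lost in 7 and 9 of the 10 fits without 1 animal.

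The circadian clock runs on activators of the Clock and Arntl family and the repressors they induce. Of 21 clock genes, 3 were DE and all 3 were lower in IBA, beside 0.466% of all genes. At q under 0.01, 5 were lower and 0 were higher, beside 2.61% and 4.21% of all genes. The 3 were Ciart, Nr1d1, and Nfil3, each a transcriptional repressor. Their sizes set them apart from the list median of -0.22.

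Ciart (gene14012), a repressor of Clock and Arntl, was 8.27, 8.83, 9.05, 8.83, and 8.53 in LAr. In IBA it was 7.18, 6.78, and 6.77 in experiment 1 and 6.07 and 6.06 in experiment 2. Every IBA animal was at least 1 log2 unit below the lowest LAr animal, and the fitted difference was -2.59 (SE 0.22, q = 1.1e-07), a 6.02-fold lower level. Nr1d1 (gene5497), the heme receptor REV-ERB alpha, was 11.33 to 12.01 in LAr and 9.49 to 11.29 in IBA, with K1 (11.29) far above the other IBA animals (9.49 to 10.15). Its difference was -1.85 (SE 0.32, q = 5.4e-04), and the call was lost in 8 of the 10 fits without 1 animal (highest q 0.00249, without IBA animal 104). Nfil3 (-1.12, q = 6.4e-05) overlapped between the groups and was lost without IBA animal K104 (q = 0.00104). The core activators Arntl (-0.22, q = 0.54) and Clock (0.16, q = 0.48) and the period gene Per1 (-0.61, q = 0.147) were not DE.

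The largest decrease among all DE genes was that of RNaseP_nuc, the RNA component of ribonuclease P, which trims the 5′ ends of tRNA precursors. It was 7.18, 8.17, 7.59, 7.38, and 7.86 in LAr, 6.46, 6.10, and 6.18 in IBA animals of experiment 1, and 4.63 and 4.48 in those of experiment 2. The groups did not overlap. Within IBA, the 2 experiments differed by more than the animals of 1 experiment did, in values that the authors had already corrected for experiment. The log2 difference was -2.99 (SE 0.20, q = 7.8e-10). The IBA values of experiment 2 were near 4.11, the lowest value of any gene in any animal, so the size of this decrease is uncertain. RNaseP_nuc was the only DE member of 11 in the RNase P and MRP list, beside 0.466% of all genes called lower, and the list median was 0.11. The others encode protein subunits, and their differences ran from -0.34 for Pop7 to 0.35 for Pop1. The libraries were made from poly(A) RNA with different kits in the 2 experiments. The part of the selection, or of the authors' correction, in this value was not tested. HIST1H1E, named as a linker histone by its match to human sequence, was 7.04 ± 0.10 (SD, n = 5) in LAr and 6.04 ± 0.14 in IBA (log2 -1.18, q = 1.8e-05). It missed the threshold in experiment 2 alone and with the IBA and LAr animals fitted alone.

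RNA-binding proteins that respond to cold and splicing factors held 3 DE genes. Cirbp (gene14771), the cold-inducible RNA-binding protein, was 12.94 to 13.20 in LAr and 12.39 to 12.59 in IBA (log2 -0.66, SE 0.11, q = 4.4e-04), and it was the only DE gene of 7 in its list. Of 97 splicing factors, 0 were higher and 2 were lower, Srsf5 and Hnrnpdl, beside 0.466% of all genes called lower. Srsf5 (gene6411), a serine/arginine-rich splicing factor, was 13.91 to 14.09 in LAr and 13.37, 13.29, 13.27, 13.25, and 13.30 in IBA. Both groups were tight (SD 0.06 and 0.05), and the difference was -0.79 (SE 0.13, q = 2.2e-04), with q = 0.00128 without IBA animal 104. Cirbp was lost in 6 and Hnrnpdl (-0.61) in 9 of the 10 fits without 1 animal.

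The largest increase among DE genes with a symbol was that of Arrdc3 (gene45), an arrestin-like protein that removes receptors from the cell surface. Its values were 11.04, 11.06, 11.39, 11.28, and 11.05 in LAr and 12.20, 11.81, 11.78, 12.79, and 12.15 in IBA. All IBA animals were higher, K104 most of all, and the difference was 1.38 (SE 0.19, q = 4.3e-05). Its relative Arrdc4, an inhibitor of glucose uptake in the same family, was also DE (0.59, SE 0.09, q = 1.3e-04; q = 0.00207 without IBA animal 104). These were the only DE genes of 26 in the insulin, FoxO, and glucocorticoid list, beside 0.964% of all genes called higher, and the list median was 0.0078.

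Thbs1 and Itgb6 were among the largest increases. Thbs1 (gene647), the matrix protein thrombospondin 1, which activates latent TGF-beta, was 12.11 to 12.43 in LAr and 12.77 to 13.48 in IBA (log2 1.02, SE 0.16, q = 2.0e-04). Itgb6 (gene92), the epithelial integrin subunit that also activates TGF-beta, was 9.92 to 10.25 in LAr and 10.70 to 11.30 in IBA (log2 1.02, SE 0.16, q = 2.2e-04). The animals did not overlap for either gene. Both were lost without IBA animal K104, with q = 0.00307 for Thbs1 and 0.00281 for Itgb6, and Itgb6 also without LAr animal K111 (q = 0.00101). Of the 25 genes in the TGF-beta, BMP, and Id list, 2 were higher and 2 lower at q under 0.01, beside 4.21% and 2.61% of all genes.

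Chromatin regulators included 2 DE genes of 72 histone and DNA modifying enzymes, both higher, beside 0.964% of all genes. Setd7, a lysine methyltransferase, was 7.84 to 8.12 in LAr and 8.56 to 9.16 in IBA (log2 1.04, SE 0.19, q = 7.8e-04). Eed (gene6841), a core subunit of Polycomb complex PRC2, was 8.53 to 8.68 in LAr and 8.92 to 9.14 in IBA (log2 0.55, SE 0.06, q = 6.9e-06). Setd7 was lost in 9 of the 10 fits without 1 animal (highest q 0.00279, without LAr animal 111) and Eed in 0 of the 10. Both missed the threshold in experiment 2 alone, with no term for experiment, and with the IBA and LAr animals fitted alone. The highest q of Eed in any fit was 0.022. Bcorl1, a transcriptional corepressor, was 0.91 higher (q = 1.5e-04).

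Slc40a1 and Coq10b were also among the largest increases. Slc40a1 (gene7879), the iron exporter ferroportin, was 10.36 ± 0.16 (SD, n = 5) in LAr and 11.21 ± 0.16 in IBA (log2 0.90, SE 0.15, q = 2.8e-04). It was the only DE gene of 34 antioxidant and NRF2 genes, beside 0.964% of all genes called higher, and the list median was -0.10. The q of Slc40a1 was 0.00106 without LAr animal 115 and 0.00117 without LAr animal 116. Coq10b, which handles coenzyme Q in mitochondria, was 8.72 ± 0.12 in LAr and 9.49 ± 0.12 in IBA (log2 0.90, q = 2.7e-05). Fam109a, an adaptor of endosomal traffic, was 1.02 higher (q = 8.8e-04) but was lost in 9 of the 10 fits without 1 animal. LOC101958749 was 1.19 higher and LOC101959922 was 0.92 higher, the latter lost in 8 of the 10 fits without 1 animal (highest q 0.00341, without LAr animal 116) and the former in 0 of the 10.

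NF-kappaB is the transcription factor that turns on cytokine and survival genes in inflammation. Nfkb1 (gene9083), its p105 and p50 subunit, was 9.55, 9.43, 9.38, 9.46, and 9.28 in LAr and 10.19, 9.89, 9.86, 10.31, and 9.81 in IBA. It was higher in every IBA animal, with K1 and K104 highest (log2 0.73, SE 0.11, q = 1.4e-04; q = 0.00213 without IBA animal 104). Of the 22 genes in its list, Nfkb1 was the only DE gene, but 6 were higher and 0 lower at q under 0.01, where 4.21% and 2.61% of all genes were. The others of the 6 included the chemokine Cx3cl1 (0.97), the apoptosis inhibitor Birc3 (0.79), and the second NF-kappaB precursor Nfkb2 (0.52), named after their values were seen. The list median was 0.40, but 12 of the 22 differences were positive, beside 48.7% of all genes, and the lowest was -0.59. Macrophage markers were also higher in some IBA animals, and their part in the values of this list was not tested.

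Cytosolic heat shock chaperones refold proteins after thermal stress. Of 39 measured, 0 were DE, 5 were higher and 0 lower at q under 0.01 (4.21% and 2.61% of all genes), and 29 of the 39 differences were positive, beside 48.7% of all genes (median 0.15). Hsph1, a cochaperone of Hsp70, was 9.91 ± 0.16 (SD, n = 5) in LAr and 10.91 ± 0.33 in IBA (log2 0.94, q = 0.0025), and a second row with the same symbol had a difference of 0.74 (q = 0.0011), so that reads may be divided between them. Hspa1b, the inducible Hsp70, was 9.91 to 10.58 in LAr and 9.84 to 11.64 in IBA and missed the threshold (log2 0.60, q = 0.198). In the unfolded protein response of the endoplasmic reticulum, 0 of 38 genes were DE and the median was -0.02. Herpud1, a factor in the removal of misfolded proteins, had the lowest q there (-0.54, q = 0.0029), and Xbp1, the transcription factor of that response, had a difference of 0.32 (q = 0.138).

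Genes of cell death and kidney injury did not reach the threshold. Of 16 BCL-2 family genes, 0 were DE. The list median was -0.11, and 6 of the 16 differences were positive, beside 48.7% of all genes. At q under 0.01, 2 were higher and 0 lower, beside 4.21% and 2.61% of all genes. The 2 were the proapoptotic genes Bcl2l11 (0.48, q = 0.0018) and Bak1 (0.54, q = 0.0037). All IBA animals were above all LAr animals for both, beside 7.62% of all genes, while Bax was 0.33 higher with q = 0.014. Of 30 markers of tubule injury and repair, 0 were DE, and 4 were higher and 1 lower at q under 0.01 (4.21% and 2.61% of all genes). Their median was 0.58 with 25 positive differences. Myof, a membrane repair protein, had the lowest q of these (0.76, q = 0.0041). The kidney damage marker Lcn2 varied widely between animals, from 8.63 to 11.89 in LAr and from 9.15 to 12.95 in IBA (log2 1.56, SE 0.68, q = 0.111). Vcam1 (0.35, q = 0.503) and Sema5a (-0.06, q = 0.871) overlapped widely. Markers of the inner medulla, fibroblasts, and macrophages were higher in some IBA animals, with overlap between the groups, and their part in the injury list was not tested.

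**Figure D3:**
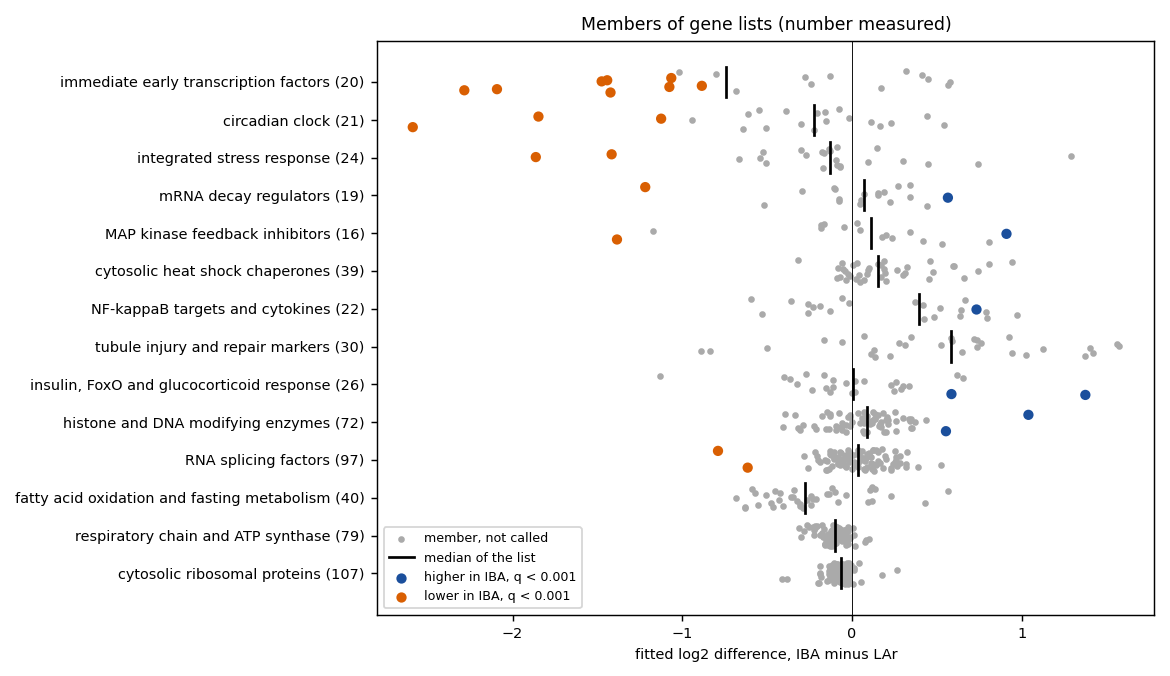
Fitted log2 differences, IBA minus LAr, are shown for every measured member of 14 gene lists, with the list median as a bar and DE genes in color. The 8 DE genes among the immediate early transcription factors all lie on the left, down to -2.28, while respiratory chain and ribosomal protein genes form narrow groups with medians of -0.10 and -0.07 and hold 0 DE genes.

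The lists of respiratory chain, cytosolic ribosomal protein, and fatty acid oxidation genes held 0 DE genes. In the respiratory chain and ATP synthase list, 0 of 79 genes were DE by limma and 0 at q under 0.01, although only 6 of the 79 differences were above 0, against 48.7% over all genes, the median was -0.10, and the lowest difference was -0.31. Cytosolic ribosomal proteins (0 of 107 DE, median -0.07, with 7 positive differences) were alike. Rpl7l1, a relative rather than a ribosomal subunit that the symbol pattern included, had the lowest q of that list (0.26, q = 0.0044). Fatty acid oxidation and fasting genes had a lower median (-0.28) and 0 DE genes of 40, with Acadsb, a short branched-chain acyl-CoA dehydrogenase, at -0.56 (q = 0.0042). Proximal tubule cells hold much of the kidney's mitochondria, and their markers were lower in IBA as well (median -0.54), the part of which was not tested.

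Lists with 0 DE genes also included glucose metabolism (31 genes, lowest q for Pfkp, 0.83), cholesterol synthesis (25, Mylip, -0.53), proteasome subunits (46, Psmb8, 0.60), and ER to Golgi transport (51, Lman1, -0.18). The same held for ribosome biogenesis (53, Mak16, 0.30), mitochondrial ribosomal proteins (80, Mrpl45, -0.27), cytosolic tRNA synthetases (20, Dars, -0.23), and translation factors (65, Eif2a, -0.37). It also held for transcription elongation and Mediator (68, Cdk7, 0.43), DNA replication and cell cycle (29, Ccnd2, 0.84), actin and SRF targets (29, Cdc42ep3, 0.57), and autophagy (40, Sqstm1, 0.51). Of these named genes, only Pfkp, Psmb8, Dars, and Lman1 missed q under 0.01. Each was chosen for the lowest q and can run against its list. The list medians were -0.12 for glucose metabolism, -0.05 for proteasome subunits, and 0.03 for cholesterol synthesis, opposite in sign to Pfkp, Psmb8, and Mylip. In the list of 64 cilium genes, only Cfap100, a protein of motile cilia, was DE, and it was lower (-0.71, q = 7.1e-04), beside 0.466% of all genes. Its call was lost in 8 of the 10 fits without 1 animal.

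Zinc finger genes with a ZNF symbol included several DE genes, a group formed after the values were seen that leaves out rows annotated only as containing one. Of 233 such genes, 14 were DE and higher and 0 were lower, beside 0.964% and 0.466% of all genes. Differences were positive for 172, beside 48.7% of all genes, and the median was 0.15. The largest were Znf644 (0.75) and Znf646 (0.73), and the smallest of the 14 was Znf251 (0.32). The count fell to 8 when each animal was centered to the same median, to 6 without IBA animal K104, to 3 higher and 1 lower in experiment 2 alone, and to 0 with the IBA and LAr animals fitted alone. Many ZNF genes are near copies of each other, and counting can divide reads among them.

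Transcripts without a gene symbol made up 7.14% of the table, 12.1% of the genes higher in IBA (15 of 124), and 12 of the 60 that were lower, rows annotated only as containing a gene included. G5728 was 8.07 in LAr and 6.51 in IBA as fitted levels (difference -1.56, q = 3.8e-05), and G9450 had a difference of -1.31 (q = 8.6e-04). G2696 (0.86) and G6222 (0.84) were the largest increases of this kind among the numbered genes. G9450 and G2696 were lost in 9 and 8 of the 10 fits without 1 animal.

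Markers of kidney cell types were set beside these results for each animal. All of the 12 proximal tubule markers were measured, 11 had a negative difference, and 0 were DE (median -0.54, lowest q 0.037). The mean of the 12 was 14.68 to 15.08 in LAr and 14.16 to 14.81 in IBA, lowest in K7 (14.16) and K104 (14.22). On the summed linear scale, given as log2, the list lay between 19.19 and 19.32 in LAr and between 18.30 and 19.16 in IBA. The part of these markers in the gene results was not tested.

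Markers of the inner medulla, the innermost zone of the kidney, spread widely among the IBA animals. The mean of 6 measured genes was 10.83 to 11.14 in LAr and 12.04, 11.68, 11.31, 12.80, and 10.79 in IBA animals K1, K4, K7, K104, and K171. The urea transporter gene Slc14a2, whose product recycles urea in that zone, read 6.31 to 6.91 in LAr and 9.67, 8.92, 8.11, 12.24, and 6.67 in these IBA animals. It had the highest difference of all 12863 genes but a large error (log2 3.13, SE 1.07, q = 0.044). Fibroblast and pericyte markers were positive for 7 of 7 genes (median 0.88), with means of 8.08 to 9.25 in LAr and 8.28 to 9.55 in IBA. Macrophage markers were positive for 4 of 5 (median 0.50), highest in K7 (9.21), where C1qa, a complement gene of macrophages, was 9.18. Csf1r, the receptor of a macrophage growth factor, did not overlap between the groups (1.02, q = 0.0083). C1qa (0.50, q = 0.089), C1qb (0.40, q = 0.214), and the B lymphocyte gene Cd79a (-0.39, q = 0.407) were not DE.

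Distal convoluted tubule markers were lower for 3 of 3 (median -0.48). Loop of Henle (5 of 5 positive, median 0.13) and endothelial markers (6 of 7 positive, median 0.23) differed less, as did those of principal (3 of 5 positive, median 0.28) and intercalated cells (3 of 5, median 0.13) of the collecting duct. The 2 red blood cell genes had a median of 0.05, and the only proliferation marker in the table, Stmn1, was 0.71 higher with q = 0.022. None of the listed markers was DE by limma. Genes sought for neutrophils, T and natural killer cells, adipocytes, and adrenal tissue were not found by symbol in the table, so their levels are unknown. Without K1 and K104, the pair with the highest inner medulla means, 59 genes were DE (35 higher, 24 lower), and 58 of the 59 were among the 184. Of 41 named DE genes, 24 missed the threshold in that fit. Among genes higher in IBA these included Arrdc3 (1.15, q = 0.0022), Coq10b (q = 0.0010), Slc40a1 (q = 0.0012), LOC101958749 (q = 0.0012), Bcorl1 (q = 0.0015), Nfkb1 (q = 0.0047), Arrdc4 (q = 0.0060), Setd7 (q = 0.0063), Fam109a (q = 0.0070), Itgb6 (q = 0.0076), and Thbs1 (q = 0.0089). Among genes lower in IBA they included Gadd45g (q = 0.0010), Nfil3 (q = 0.0029), Srsf5 (q = 0.0029), and Dusp1 (q = 0.0042). Of the immediate early genes, 6 were DE and lower in it, without Klf10 and the Ier2 row gene18649, and Ciart, Ppp1r15a, and RNaseP_nuc were DE as well.

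**Figure D4:**
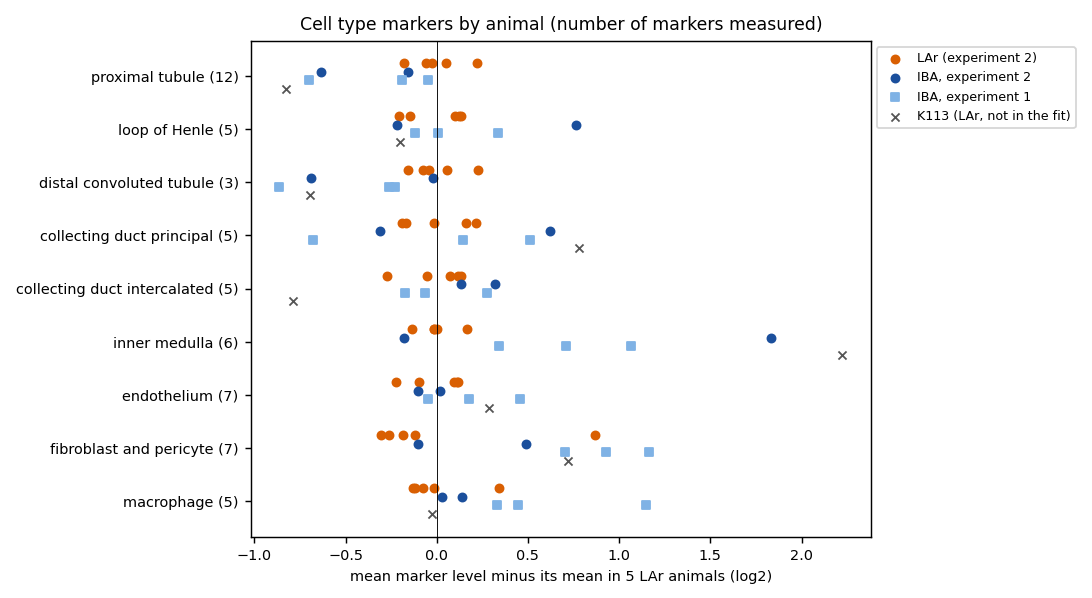
The mean marker level of each animal, minus its mean in the 5 LAr animals, is shown for cell types with at least 3 measured markers. IBA animals K104 and K1 and the left-out animal K113 lie highest for the inner medulla, at 12.80, 12.04, and 13.19 before subtraction, while the LAr animals span 10.83 to 11.14.

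K113, the LAr animal that took no part in the fit, lay outside the range of the other LAr animals for most genes, DE or not. All 20 immediate early genes were higher in K113 than in every other LAr animal, where 35.6% of all genes were above and 37.2% below the LAr range. Egr1 reached 12.96, Jun 13.59, and Atf3 12.35. The same held for Ciart (9.84) and Nr1d1 (12.50). Among the 60 genes lower in IBA, K113 was above the LAr range for 23, within it for 10, and below it for 27, shares not far from those of all genes. Among the 124 genes higher in IBA it was above the range for 91, within it for 22, and below it for 11. Its median distance from the LAr mean over these genes was 0.33, against 0.48 and 0.58 in IBA animals K171 and K104. Dusp6 was 11.17 in K113, above every IBA animal, while Slc40a1 (10.19) and Fam109a (8.72) were at LAr levels.

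Fitted levels in the other states place these differences in the hibernation cycle. The levels come from the same model on the scale of experiment 2, and they share animals with the comparison above. Fos was 7.59 in Ent, 10.42 in LAr, 8.33 in IBA, 8.30 in SpD, and 9.23 in SA. Jun was 10.39, 12.64, 11.16, 10.41, and 10.78 in the same order. For both, LAr stood highest of the 5 states and IBA was nearer to the other states. The LAr/Ent difference, called for 0.225% of all genes, was 2.83 (q = 2.6e-09) for Fos and 2.25 (q = 5.7e-09) for Jun. For Jun, Ent minus IBA was -0.77 (q = 0.0023, with 0.746% of all genes called), and the IBA/SpD difference was 0.75 (q = 0.0023, with 1.25% called), both short of the threshold.

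Ciart was 6.46 in Ent, 8.72 in LAr, 6.13 in IBA, 6.30 in SpD, and 6.16 in SA, so that the states other than LAr lay between 6.13 and 6.46. Ppp1r15a was 10.51 in Ent, 10.58 in IBA, 10.57 in SpD, and 10.17 in SA, and LAr stood 1.49 above Ent (q = 5.6e-07). Srsf5 showed another order, at 13.73 in Ent and 13.998 in LAr but 13.21 in IBA, 13.52 in SpD, and 13.13 in SA. Its LAr/Ent difference (0.27, q = 0.413) missed the threshold. Cirbp was like it, at 12.92 in Ent, 13.07 in LAr, 12.41 in IBA, 12.56 in SpD, and 12.13 in SA.

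Among genes higher in IBA, Itgb6 was 10.52 in Ent, 10.11 in LAr, 11.12 in IBA, 10.40 in SpD, and 10.33 in SA. IBA was the highest of the 5. Its IBA/SpD difference was 0.72 (q = 0.0023), its IBA/SA difference was 0.79 (q = 0.0022, with 3.15% called), and Ent minus IBA was -0.60 (q = 0.0093), all short of the threshold. Arrdc3 had another pattern, with 11.77 in Ent and 11.17 in LAr against 12.55 in IBA, 12.79 in SpD, and 12.50 in SA. Its IBA level did not differ detectably from SpD (-0.24, SE 0.17, q = 0.383) or SA (0.04, q = 0.903).

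**Figure D5:**
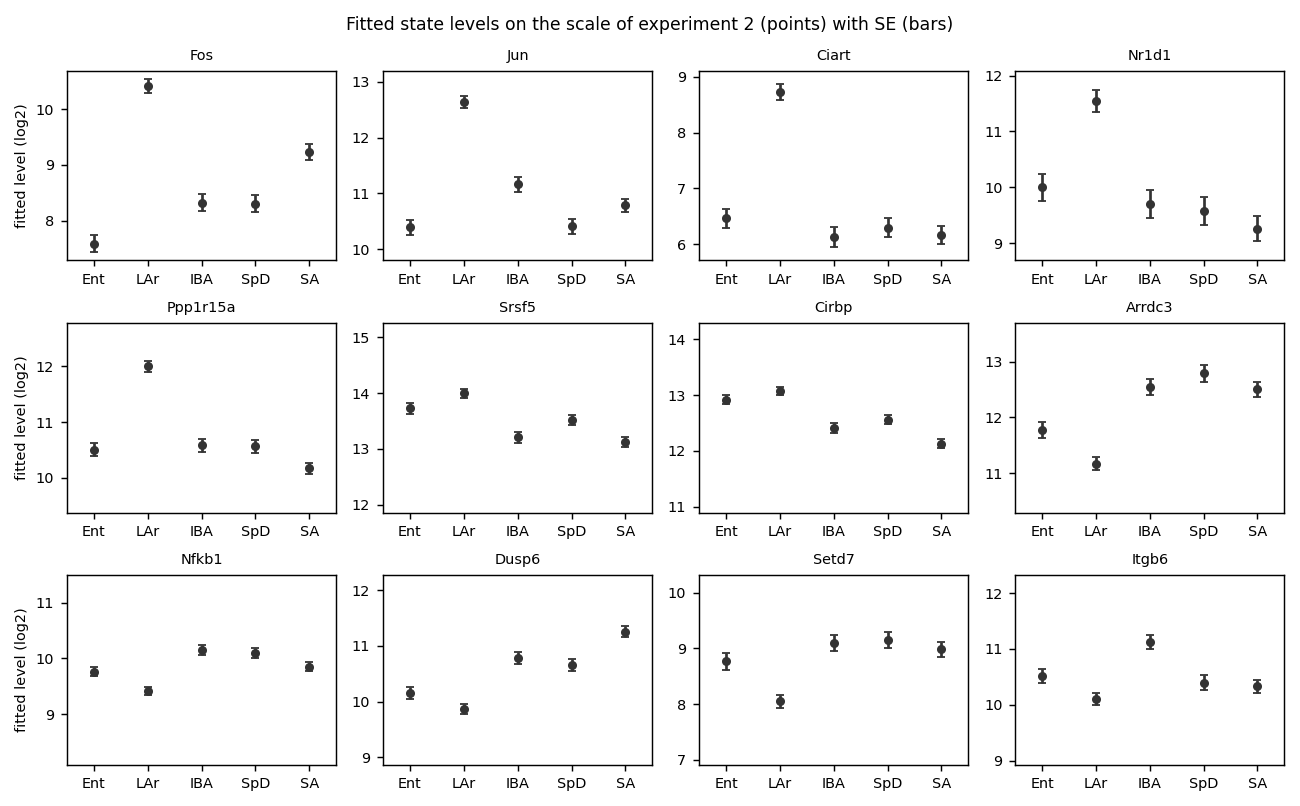
Fitted levels with SE on the scale of experiment 2 are shown in Ent, LAr, IBA, SpD, and SA for 12 genes. Fos, Jun, Ciart, Nr1d1, and Ppp1r15a are highest of these states in LAr, Itgb6 is highest in IBA, and Arrdc3 and Setd7 in IBA are near their SpD and SA levels.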

How the data were processed

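The authors used cutadapt for trimming, HISAT2 to filter out mitochondrial reads, Salmon to quantify transcripts of the HiC_Itri_2 genome, and limma to remove the experiment effect. The deposited table held the resulting rlog values on the log2 scale, already filtered on low values. The study's own test was DESeq2 on counts, which were not used here. Because rlog shrinks low values, folds of low genes are understated.

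Here, limma 3.58.1 (R 4.3.3) was fitted to all 12863 genes in 29 animals and 6 states with terms for sex and experiment, an intensity trend, and Benjamini-Hochberg q under 0.001. K113 and K137 were left out, as in the study. Each sample was a separate animal, and 0 columns were unmapped. On simulated data for this comparison over 12863 genes, 80% of 200 genes changed by a log2 of 1 and 28% of 200 changed by 0.5 were recovered. The simulated noise was independent between animals and genes, with the same SD of a gene in all states and no difference between experiments. Recovery under the spread of the real animals was not tested. Plots used matplotlib 3.10.9 (Python 3.11.15).

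Genes and lists were chosen with earlier results of these data known. Named genes were the 12 largest increases and 12 largest decreases among DE genes with a symbol and no overlap between groups, the 5 lowest q, up to 4 DE members of each list by size (the lowest q where none was DE), genes the study names, and 2 unnamed transcripts in each direction. Other genes were named after their values were seen, among them Klf10, both Ier2 rows, Slc14a2, and list members given at q under 0.01. Lists defined by symbol patterns hold a few relatives, such as kinases of eIF2 among the translation factors. Alternatives changed the animals, terms, weights, centering, low-value filter, and threshold. The planned promoter description was not run, and a fitted state and some genes are not reported here.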

Additional observations from a re-analysis of the deposited data

Results flagged for a closer look

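In groups of 5 animals, 1 animal stood apart from the others of its state in 10 of 140 gene and state groups tested, by a gap over 0.71 of the group's range. Chance flags about 1 in 20 groups. Among genes described above, these were G2696 in IBA animal K104 (8.04, the highest), C1qa in IBA animal K7 (9.18, the highest), Setd7 in LAr animal K111 (7.84, the lowest), Mex3c in LAr animal K112 (9.33, the highest), Zfp36 in LAr animal K109 (11.17, the lowest), and Otud1 in LAr animal K115 (10.17, the highest). K109 was also highest of LAr for the transcription kinase Cdk7 (9.51), and K104 was lowest of IBA for the cargo receptor Lman1 (10.87). The aspartyl-tRNA synthetase gene Dars was flagged in both states, for IBA animal K1 (10.72, the lowest) and LAr animal K116 (10.95, the lowest). For Mex3c, Zfp36, Otud1, and Setd7 the flagged animal still did not overlap with the other state.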

How the results depend on the processing

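No paired analysis was possible because animal numbers are not shared between the IBA and LAr groups. DE genes numbered 184 (124 higher and 60 lower), and 0 of the 184 changed sign under any alternative. Counts of total, higher, and lower genes were 92, 56, and 36 with all 31 animals, 47, 22, and 25 in experiment 2 alone, and 47, 27, and 20 with no term for experiment. They were 723, 455, and 268 with animal weights, and 878, 542, and 336 at q under 0.01. A filter on a mean of at least 8 left 39 lower genes. With the IBA and LAr animals fitted alone, limma called 0 genes in either direction (0 higher and 0 lower), with 2562 at an unadjusted p under 0.05 and a smallest q of 0.00203. Leaving out 1 animal gave 88 to 311 genes, 60 to 222 higher and 28 to 89 lower, with the fewest without IBA animal K104 and the most without IBA animal K171. The total was 112 without LAr animal K111 and 115 without K116, while lower genes were 39 without IBA animal K4 and 34 to 36 without LAr animals K111, K112, or K115. Without IBA animals K1 and K104, an alternative chosen after seeing the data, the counts were 59, 35, and 24. Centering to a common median gave 163 genes, 89 higher and 74 lower, and shifted the median of all genes from -0.0074 to -0.044. Only Sema5a (-0.06), never DE, changed sign, to 0.089 without IBA animal K104, 0.0084 without K7, and 0.023 without K1 and K104, with a range of -0.13 to 0.089 when 1 animal was left out. The causes were not tested. Depth is unknown, and the number of animals limits precision.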

Other observations

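Several gene groups held members near the threshold that are not described above, all chosen after their values were seen. Among cilium genes, Ift88 (-0.57, q = 0.0028) and Cfap70 (-0.53, q = 0.0034) had negative differences, while Ttc21b (0.59, q = 0.0033) had a positive one. All of them passed q under 0.01 but not 0.001. Among actin genes, Actn1, the crosslinker alpha-actinin 1, had a difference of 1.13 (q = 0.0023) and Tagln2 one of 0.53 (q = 0.0052). In ribosome biogenesis, 3 of 53 genes were higher at q under 0.01, among them the polymerase I factor Rrn3 (0.28, q = 0.0068).

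Among single genes chosen in the same way, Sirt3, the mitochondrial deacetylase, had a difference of -0.39 (q = 0.0025), and the histone deacetylase gene Hdac4 one of 0.55 (q = 0.0038). Gclc, which starts glutathione synthesis, had a difference of 0.36 (q = 0.0033).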
